A study of Mus musculus with 8 samples.

Results

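The genes described here are 32 members of the coagulation and fibrinolysis systems, measured in mouse liver by microarray. They were taken by gene name from the array design, which gave 51 of its 41174 non-control probes and 32 of its 27962 gene names, and each gene was represented by the probe with the highest mean over the 8 arrays. The STD group was 4 male wild-type C57BL/6 mice on standard chow, and the ATH group was 4 male wild-type C57BL/6 mice on an atherogenic diet rich in fat and cholesterol, which by the study's methods also contained cholic acid. All mice were 14 to 17 weeks old at the start and were fed for 4 weeks. RNA from a snap-frozen part of the liver of each mouse was hybridised to 1 array. The 4 STD arrays were on 1 slide and the 4 ATH arrays on another, which means that an effect of slide and one of diet cannot be told apart.

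Coagulation is a chain of plasma proteases that ends in thrombin, which cuts fibrinogen to fibrin. Tissue factor with factor VII starts the chain, the contact proteins can start it from factor XII, and factors VIII and V act as cofactors that speed the later steps. Antithrombin, the protein C system and tissue factor pathway inhibitor hold it back, and plasmin, made from plasminogen by tissue-type or urokinase-type activator, dissolves fibrin. Hepatocytes make most of these plasma proteins, whereas von Willebrand factor, thrombomodulin and the endothelial protein C receptor are best known from endothelium, and the urokinase receptor and the A chain of factor XIII from myeloid cells and platelets. In homogenised liver tissue, fewer cells of a type and less RNA per cell cannot be told apart.

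The upstream sequences of 5 members are shown because these genes carry the main contrast in the results: Procr and Plaur were the 2 genes called higher on the ATH diet, and Fgg, Fga and Fgb are 3 fibrinogen chain genes that lie next to each other and did not all take the same values. Each line is the RefSeq sequence (GRCm38.p6) of the 250 bases before the gene start, 5' to 3' on the gene's strand. The regions are chr2:155750967-155751216 (plus strand) for Procr, chr7:24462233-24462482 (plus strand) for Plaur, chr3:83007474-83007723 (plus strand) for Fgg, chr3:83025903-83026152 (plus strand) for Fga and chr3:83049864-83050113 (minus strand) for Fgb. Capitals mark matches on either strand to TGANTCA (the AP-1 type element), CTGGGA (the core of the interleukin-6 response element) or GTTAAT (a half-site of HNF1).
Procr: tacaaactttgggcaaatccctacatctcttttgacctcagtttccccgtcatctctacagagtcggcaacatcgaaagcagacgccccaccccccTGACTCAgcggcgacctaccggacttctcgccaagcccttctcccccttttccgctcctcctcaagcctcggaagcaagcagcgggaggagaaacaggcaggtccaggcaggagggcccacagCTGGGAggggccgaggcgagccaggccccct
Plaur: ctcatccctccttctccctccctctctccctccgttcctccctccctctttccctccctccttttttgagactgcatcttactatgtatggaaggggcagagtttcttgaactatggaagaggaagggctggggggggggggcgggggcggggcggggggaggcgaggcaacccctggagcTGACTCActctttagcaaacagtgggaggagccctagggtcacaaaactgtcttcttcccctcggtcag
Fgg: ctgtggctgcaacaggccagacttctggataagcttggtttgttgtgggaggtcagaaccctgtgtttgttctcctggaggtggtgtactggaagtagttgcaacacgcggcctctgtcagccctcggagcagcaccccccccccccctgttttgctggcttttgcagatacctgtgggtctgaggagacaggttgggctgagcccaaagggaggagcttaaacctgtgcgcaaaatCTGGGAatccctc
Fga: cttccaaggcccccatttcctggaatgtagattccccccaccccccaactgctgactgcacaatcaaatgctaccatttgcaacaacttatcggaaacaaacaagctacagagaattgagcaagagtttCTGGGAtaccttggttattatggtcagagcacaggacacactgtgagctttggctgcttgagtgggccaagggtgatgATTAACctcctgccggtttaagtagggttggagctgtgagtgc
Fgb: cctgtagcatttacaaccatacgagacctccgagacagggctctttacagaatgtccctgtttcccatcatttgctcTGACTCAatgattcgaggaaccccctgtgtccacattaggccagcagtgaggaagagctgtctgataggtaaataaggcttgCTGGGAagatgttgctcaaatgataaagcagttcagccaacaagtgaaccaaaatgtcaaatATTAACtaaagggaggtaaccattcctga

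TGANTCA was present before the start of Procr, Plaur and Fgb, CTGGGA before that of Procr, Fgg, Fga and Fgb, and GTTAAT before that of Fga and Fgb. Over windows from 250 bases before to 50 bases after the start, TGANTCA was found in 5 of the 24 members that had a window (F2, F3, Fgb, Plaur and Procr) and in 7.81% of 32851 windows of all genes. CTGGGA was found in 14 of the 24 members and in 31.8% of all windows. GTTAAT was found in 4 of the 24 members (F13b, F2, Fga and Fgb) and in 7.1% of all windows. Members were counted by gene, with a match in any window of the gene, and the percentages are of single windows. The counts and percentages are therefore not in the same unit. These are letter matches only, and none was tied to a signal in these arrays.

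Signal is given throughout as the log2 processed intensity minus the 75th percentile of its array (scaled log2 signal), so 0 is the array's 75th percentile and a difference of 1 is a doubling. Probes have different affinities, so levels were compared between arrays and never between genes. Differences are ATH minus STD on this log2 scale with the standard error (SE) of the limma fit, and adjusted p-values are limma's, corrected by Benjamini-Hochberg over 31042 detected probes. A gene is said to have risen or fallen where its adjusted p was under 5%. Of the 32 genes, 30 were detected in both diets (on 3 or more arrays of each). A2m was detected on 4 STD arrays and 2 ATH arrays, and Plau on no STD array and 3 ATH arrays, so these genes entered the test through 1 diet only.

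Between 72.3% and 77.8% of spots were well above background on each array, and the arrays correlated over probes at 0.986 to 0.991 within STD and at 0.971 to 0.990 within ATH. The liver of STD replicate 4 stood apart in acute phase genes, with Saa1 (serum amyloid A) at 10.12 against 4.92 to 5.77 in the other STD livers and 8.30 to 8.93 in the ATH livers. Lcn2 was 3.44 in that liver against -3.80 to -3.22 in the other STD livers. Within ATH, replicate 2 had the lowest level of macrophage markers. The 75th percentile itself was 8.81 to 8.91 (log2 intensity) on STD arrays and 9.11 to 9.46 on ATH arrays, so the scaling lowers ATH values relative to STD values.

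Between the diets, 2 of the 32 genes were called higher on ATH (Procr and Plaur) and 1 lower (A2m). This is 9.375% of the genes, against 8.78% of all 21292 genes tested in the same way, where 3.54% rose and 5.25% fell. The share was therefore near the background and says nothing particular about coagulation genes, and A2m passed the filter only through the diet in which it was high. None of the 32 passed a false discovery rate of 1% by limma, and the methods' test with unequal variance called 0. Leaving out any 1 STD array or ATH replicate 4 left 0 genes called. Over all 32 genes, 10 had positive and 22 negative differences, and the median difference was -0.23 against -0.15 over all genes.

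**Figure D1:**
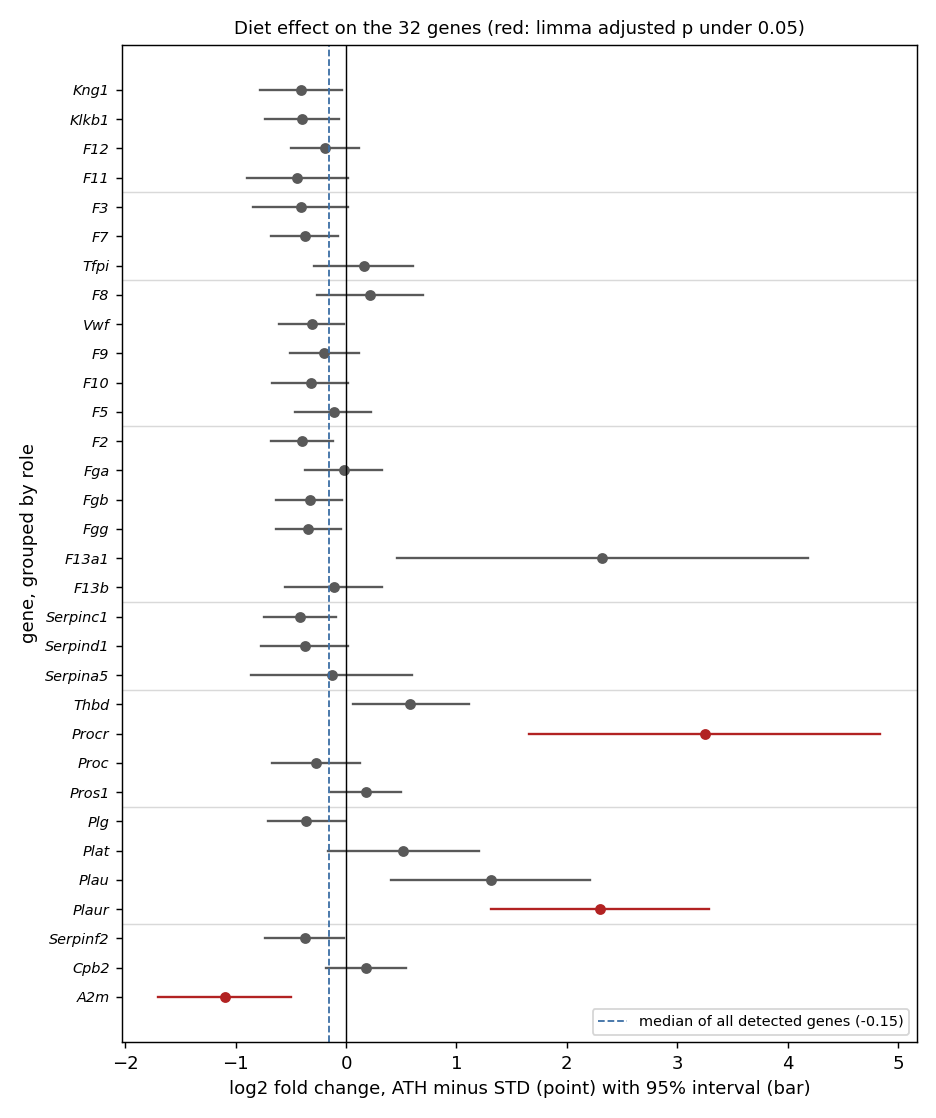
Difference between diets for the 32 genes, grouped by role, as log2 fold change (ATH minus STD) on the horizontal axis with 95% intervals from limma (4 arrays per diet). Points are fitted differences, red genes passed 5% after adjustment, the solid line is 0 and the dashed line is the median of all detected genes (-0.15). Procr, F13a1 and Plaur lie above 1, as does the measured value of Plau, whose STD signals were at background, A2m lies at -1.10, and 21 genes lie between -0.44 and -0.02.

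A small set of genes had large positive differences with wide spread among ATH livers, and most plasma protein genes had small negative differences at this scaling. The measured differences of 4 genes were above 1 (Procr, Plaur, F13a1 and Plau). That of Plau is of uncertain size, because its STD signals were at background. The differences of 6 genes were between 0.16 and 0.58, and those of 21 were between -0.44 and -0.02, with A2m apart at -1.10. The groups did not overlap for 9 genes, 2 of them higher on ATH (Procr and Plaur) and 7 lower (Klkb1, F7, F2, Fgb, Fgg, Serpinc1 and A2m). This is 28.125% of the genes, against 21.1% of all genes tested (6.74% higher and 14.4% lower). The directions depended on the scaling, with 14 higher and 0 lower without scaling, 5 and 0 with spike-in scaling, 5 and 2 with quantile normalization and 3 and 3 with median scaling.

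The protein C system had 4 members measured. Procr encodes the endothelial protein C receptor, which holds protein C for activation by thrombin bound to thrombomodulin. Its scaled log2 signals were -1.57, -1.49, -1.81 and -1.81 in STD replicates 1 to 4 and 1.12, -0.59, 2.61 and 3.18 in ATH replicates 1 to 4. All ATH livers were above all STD livers, and the STD livers lay close together while the ATH livers were spread over several units. Procr rose by 3.25 (SE 0.70, 95% interval 1.66 to 4.84), a 9.51-fold difference, with an adjusted p = 0.0329 by limma. With replicate as a block, the adjusted p was 0.0568 and the call was lost, and when 1 array was left out it ranged from 0.00312 to 0.0838. The difference itself ranged from 2.72 to 3.97 on the log2 scale with 1 array left out, the highest value being that without ATH replicate 2. Its probe was at chr2:155496067-155496126 in the assembly of the array design (mm7).

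Thbd, thrombomodulin, was -1.46, -1.23, -1.02 and -1.09 in the STD livers and -0.88, -0.40, -0.08 and -1.11 in the ATH livers. The groups overlapped through ATH replicate 4, and the difference of 0.58 (SE 0.23) had an adjusted p = 0.139. Proc, protein C itself, which hepatocytes secrete, differed by -0.27 (adjusted p = 0.340), and Pros1, its cofactor protein S, by 0.18 (adjusted p = 0.420). The receptor was thus the 1 member of 4 called, and whether the 4 differ from each other was not tested.

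Among the fibrinolysis activators, Plaur encodes the urokinase receptor, which concentrates plasmin formation on cell surfaces. Its scaled log2 signals were -3.01, -3.28, -2.92 and -3.20 in the STD livers and -1, -2.15, 0.18 and -0.24 in the ATH livers. Every ATH liver was above every STD liver, with ATH replicate 2 nearest to them, as for Procr. Plaur rose by 2.30 (SE 0.44, 95% interval 1.31 to 3.29), a 4.93-fold difference, with an adjusted p = 0.0231, which ranged from 0.00225 to 0.0663 when 1 array was left out.

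A second Plaur probe gave a check within the gene. It is shown because its 60 bases map to a stretch of 178 bases, chr7:21262233-21262410 in mm7, so they come from both sides of a splice junction, whereas the first probe is a single block at chr7:21263487-21263546.
Plaur junction probe: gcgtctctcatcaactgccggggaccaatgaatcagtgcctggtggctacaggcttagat
This probe read -2.79, -3.39, -2.77 and -3.32 in the STD livers and -2.10, -2.53, -1.05 and -1.41 in the ATH livers. The groups again did not overlap, and the difference was 1.29 with an adjusted p = 0.0457 (0.0511 with the replicate block). Both probes thus rose, with differences of unequal size.

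Plau encodes urokinase, the ligand of that receptor. Its signals were -6.56, -7.13, -5.50 and -5.68 in the STD livers, none well above background, and -4.81, -5.70, -4.69 and -4.44 in the ATH livers, 3 of them well above background. The STD level is therefore only a bound. For it, each STD array was given the lowest signal well above background on it, or the probe's own where that was higher. The mean of the 4 ATH signals was 1.47-fold above that bound. That mean includes an ATH signal not well above background, so it gives no minimum difference. The adjusted p was 0.0740, and 0.0369 with the replicate block, but both were computed on STD signals at background in a gene that entered the test through ATH only, so neither is taken as a call here. With normexp background correction the measured difference was 0.01 (adjusted p = 0.956). The other Plau probe was detected on 0 arrays of either diet, with a measured difference of -0.55. Plat, tissue-type activator, differed by 0.52 (adjusted p = 0.286), from -2.71 to -2.44 in STD and from -2.62 to -1.24 in ATH. Plg, plasminogen, the liver-made substrate of both activators, was 7.08, 6.99, 6.93 and 7.15 in STD and 6.77, 7.01, 6.41 and 6.52 in ATH, and differed by -0.36 (SE 0.15, adjusted p = 0.162).

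**Figure D2:**
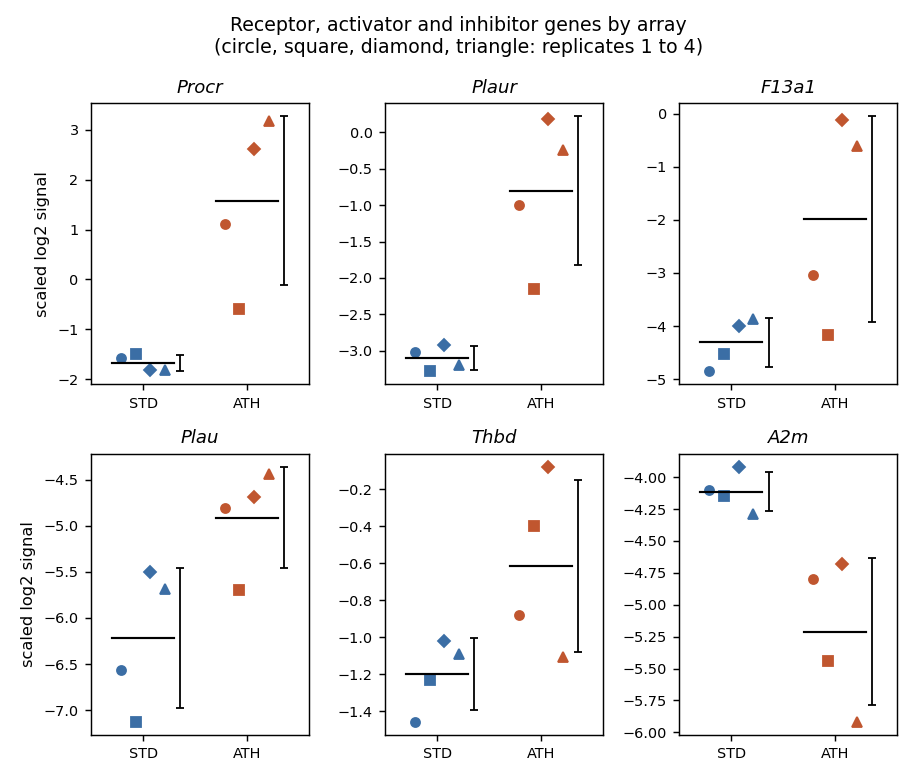
Scaled log2 signal (vertical axes, one scale per panel) of 6 genes in the 4 STD (blue) and 4 ATH (orange) livers, with replicates 1 to 4 as circle, square, diamond and triangle, the mean as a line and the SD as a bar. Procr, Plaur and A2m have no overlap between diets, and ATH replicate 2 is the lowest ATH liver for Procr, Plaur, F13a1 and Plau.

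The inhibitors of fibrinolysis gave the third call. A2m, alpha-2-macroglobulin, a broad trap of proteases including plasmin, was -4.10, -4.15, -3.92 and -4.29 in the STD livers and -4.80, -5.44, -4.68 and -5.92 in the ATH livers. The groups did not overlap, but only 2 of the 4 ATH livers had signal well above background. The measured difference was -1.10 (SE 0.26) with an adjusted p = 0.0421, which ranged from 0.0461 to 0.105 when 1 array was left out. A2m entered the test only through STD, where it was high, and 2 of its ATH values were at background. The call is therefore counted but not taken as support for a fall, and it gives no exact size. The measured difference was -0.47 with normexp background correction. A second A2m probe was detected on 1 STD array and on 0 ATH arrays. Its groups overlapped, with a measured difference of -0.46. The related genes Pzp, Mug1 and Mug2 differed by -0.24, -0.31 and -0.11, and none of these 3 was called. Serpinf2, alpha-2-antiplasmin, the direct plasmin inhibitor, differed by -0.37 (adjusted p = 0.156), and Cpb2, the carboxypeptidase that removes plasminogen-binding sites from fibrin, by 0.18 (adjusted p = 0.475).

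F13a1 encodes the A chain of factor XIII, the transglutaminase that cross-links fibrin. Its signals were -4.85, -4.52, -3.99 and -3.86 in the STD livers and -3.04, -4.16, -0.12 and -0.61 in the ATH livers. ATH replicate 2 lay within the STD range and ATH replicates 3 and 4 lay far above it. The difference was 2.32 (SE 0.82, 95% interval 0.46 to 4.18) with an adjusted p = 0.107, and with 1 array left out it ranged from 1.70 (without ATH replicate 3) to 3.05 (without ATH replicate 2), with adjusted p-values from 0.0227 to 0.242. The value of 0.0227 was that without ATH replicate 2. F13b, the carrier chain that the liver secretes, differed by -0.11 (adjusted p = 0.744).

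Macrophage markers moved with these genes. All 20 markers of that list were detected and had positive differences, 9 were called (5 with the replicate block), and their median difference was 1.62. The median scaled log2 level of the list was 1.53 to 1.76 in the STD livers and 2.78, 1.96, 4.02 and 4.07 in ATH replicates 1 to 4, and the summed linear level was 129 to 150 against 237 to 1128. Adgre1, a general macrophage surface marker, differed by 1.54 (adjusted p = 0.0702), and of the markers of resident Kupffer cells, Clec4f differed by 0.32 (adjusted p = 0.290), Vsig4 by 0.65 (adjusted p = 0.0834) and Timd4 by 0.94 (adjusted p = 0.0528). Cd5l, which Kupffer cells also make, rose by 1.69 (adjusted p = 0.00899). Marco had the largest difference of the list and rose by 3.43 (adjusted p = 0.0353). The other markers called were Cd68, Cd14, Lyz2, Lyz1, Cybb, Tyrobp and Ctss. ATH replicate 2 was the lowest ATH liver for this list and for Procr, Plaur, F13a1 and Plau. By median level it was also the lowest for the platelet, stellate cell, T and B cell and neutrophil lists, so this order is not particular to macrophages. Another ATH liver was lowest for the hepatocyte, endothelial, cholangiocyte and erythroid lists. The part of macrophage number in the 4 differences was not tested. Of the 17 endothelial markers, 1 was called (Lyve1), with a median of 0.18 and summed levels of 48.6 to 64.7 in STD and 46.8 to 73.1 in ATH. Of the 11 platelet markers, 1 was called, with a median of 0.40 and summed levels of 3.82 to 4.54 in STD and 7.39 to 14.0 in ATH.

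Thrombin and fibrinogen showed the second shape. F2, prothrombin, was 9.04, 8.93, 9 and 9.13 in the STD livers and 8.76, 8.77, 8.52 and 8.46 in the ATH livers. All ATH livers were below all STD livers, and the difference was -0.40 (SE 0.12, 95% interval -0.68 to -0.12) with an adjusted p = 0.0803. The value was 0.05 without scaling between arrays, so its direction rests on the scaling.

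Fibrinogen has 3 chains, which assemble in equal numbers. Fgb, the B-beta chain, was 9.77, 9.69, 9.64 and 9.72 in the STD livers and 9.43, 9.57, 9.38 and 9.11 in the ATH livers. Fgg, the gamma chain, was 9.24, 9.13, 9.31 and 9.37 in the STD livers and 9.03, 9.07, 8.89 and 8.71 in the ATH livers. Neither gene overlapped between diets, with differences of -0.33 (SE 0.13, adjusted p = 0.132) for Fgb and -0.34 (SE 0.13, adjusted p = 0.123) for Fgg, which became 0.11 for each without scaling. Fga, the A-alpha chain, was 6.23, 6.23, 6.40 and 6.62 in the STD livers and 6.23, 6.49, 6.57 and 6.11 in the ATH livers. Its groups overlapped throughout, and its difference was -0.02 with a 95% interval of -0.37 to 0.33, which includes the values of the other 2 chains. Without STD replicate 4, the liver with high acute phase signals, the differences were 0.06 for Fga, -0.33 for Fgb and -0.30 for Fgg. No test of 1 chain against another was made.

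**Figure D3:**
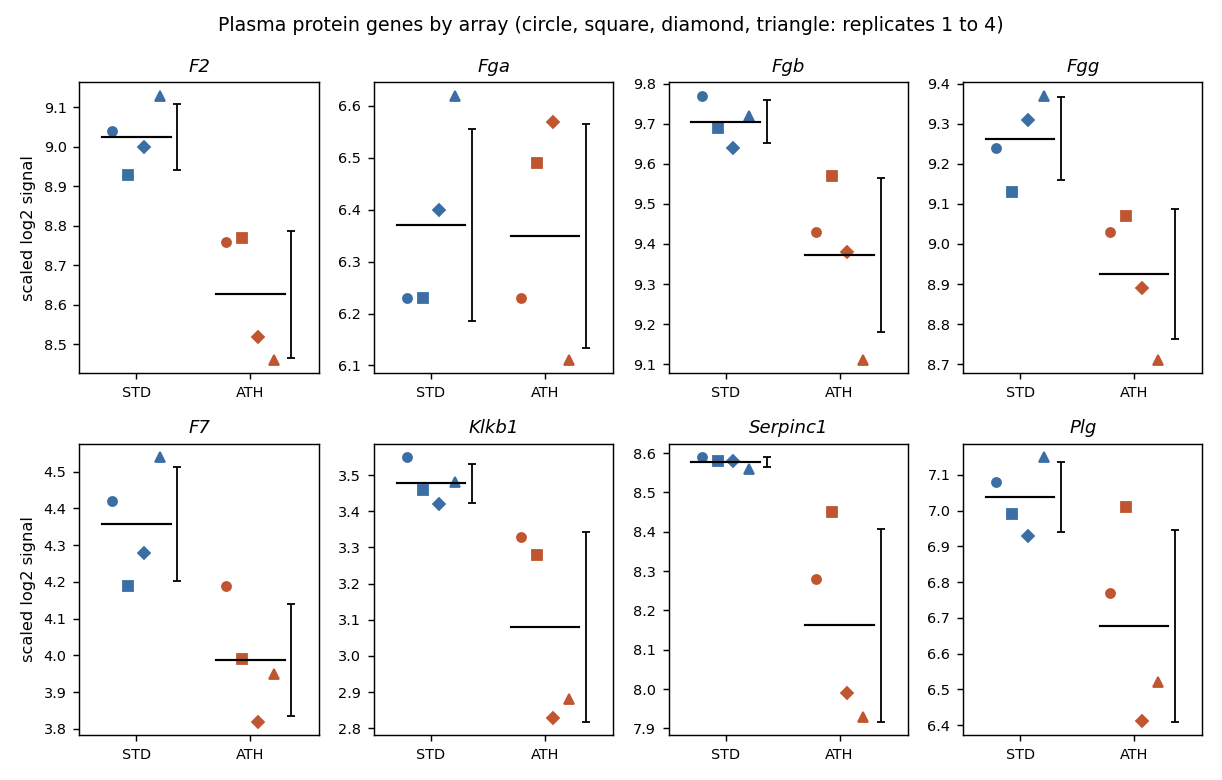
Scaled log2 signal (vertical axes, one scale per panel) of 8 genes of plasma proteins in the 4 STD (blue) and 4 ATH (orange) livers, with replicates 1 to 4 as circle, square, diamond and triangle, the mean as a line and the SD as a bar. F2, Fgb, Fgg, F7, Klkb1 and Serpinc1 are lower in every ATH liver than in any STD liver at this scaling, with F7 of STD replicate 2 and ATH replicate 1 both at 4.19 after rounding, and Fga and Plg overlap.

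Of the thrombin inhibitors, Serpinc1, antithrombin, was 8.59, 8.58, 8.58 and 8.56 in the STD livers and 8.28, 8.45, 7.99 and 7.93 in the ATH livers. The STD livers were nearly identical and all ATH livers were lower, with ATH replicate 2 the closest to STD. The difference was -0.42 (SE 0.14) with an adjusted p = 0.0982 (0.03 without scaling), and with 1 array left out it ranged from -0.51 (without ATH replicate 2) to -0.34 (without ATH replicate 4), with adjusted p-values from 0.0431 to 0.230. A second Serpinc1 probe differed by -0.43 (adjusted p = 0.0753). Serpind1, heparin cofactor II, differed by -0.37 (adjusted p = 0.198), and Serpina5, the protein C inhibitor, by -0.13 (adjusted p = 0.823).

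Of the 3 genes that start and check the tissue factor pathway, none was called. F7, factor VII, was 4.42, 4.19, 4.28 and 4.54 in the STD livers and 4.19, 3.99, 3.82 and 3.95 in the ATH livers. The groups met at 4.19 after rounding without overlapping, and the difference was -0.37 (SE 0.13, adjusted p = 0.114), or 0.08 without scaling. F3, tissue factor, the receptor that activates factor VII, was -1.06, -1.05, -1.31 and -1.05 in STD and -1.27, -1.20, -2 and -1.66 in ATH, a difference of -0.41 (adjusted p = 0.192) with overlap through STD replicate 3. Tfpi, tissue factor pathway inhibitor, differed by 0.16 (adjusted p = 0.624) on its brightest probe and by -0.11 and -0.10 on its other 2 detected probes. Of the 10 genes with more than 1 detected probe, Tfpi was the 1 whose probes differed in sign.

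The contact and kinin genes, which feed both coagulation and bradykinin release, all had negative differences at this scaling, all had positive ones without scaling, and none was called. Klkb1, plasma prekallikrein, was 3.55, 3.46, 3.42 and 3.48 in the STD livers and 3.33, 3.28, 2.83 and 2.88 in the ATH livers. The groups did not overlap, and the difference was -0.40 (SE 0.15, adjusted p = 0.121). F11, factor XI, whose gene is the neighbour of Klkb1 on chromosome 8, differed by -0.44 (adjusted p = 0.195). Kng1, kininogen, differed by -0.41 (adjusted p = 0.138), and F12, factor XII, by -0.19 (adjusted p = 0.385).

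The 5 genes of the complexes that activate factor X and prothrombin had differences between -0.32 and 0.22, and none was called. Among the enzymes, F9, factor IX, differed by -0.20 (adjusted p = 0.378) and F10, factor X, by -0.32 (adjusted p = 0.201). Among the cofactors, F5 differed by -0.11 (adjusted p = 0.652) and F8 by 0.22 (adjusted p = 0.519). Vwf, the carrier of factor VIII, differed by -0.31 (adjusted p = 0.157), with 0.65 to 0.87 in STD and 0.33 to 0.72 in ATH.

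**Figure D4:**
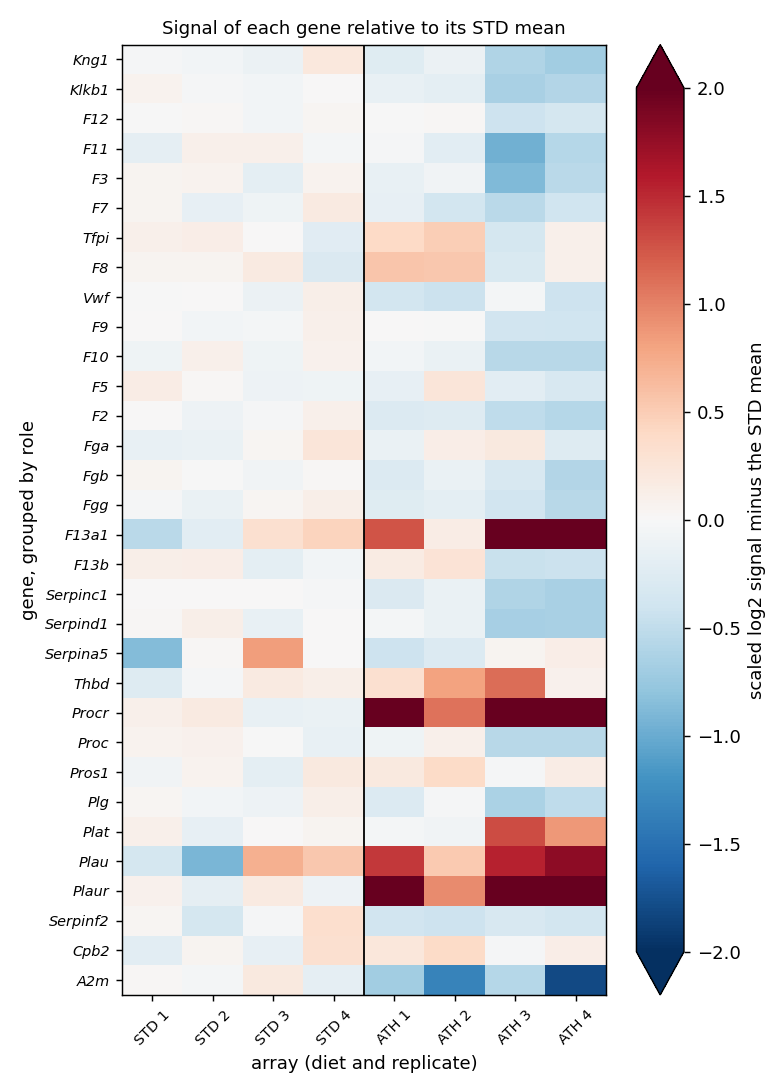
Scaled log2 signal of each of the 32 genes minus its STD mean, in the 8 livers (columns), with genes grouped by role (rows) and colour from blue (lower) to red (higher), capped at 2 units either way. Procr, Plaur and F13a1 pass the cap in ATH replicates 3 and 4, and Procr and Plaur also in ATH replicate 1. Most plasma protein genes are blue in each ATH liver, replicate 2 included, and most of them more deeply in replicates 3 and 4.

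The livers of the ATH group were not alike over these genes. ATH replicates 3 and 4 were both below replicates 1 and 2 in 21 of the 32 genes (65.6%, against 45.4% of all genes), and both above them in 7 (21.9%, against 18.4%), namely F13a1, Serpina5, Procr, Plat, Plau, Plaur and Serpinf2. Without scaling between arrays, the 2 livers were both below in 14 (43.8%, against 20.9% of all genes) and both above in 8 (25%, against 33.6%). This is a description of 4 mice, and no test was made on it.

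Hepatocyte markers moved with the plasma protein genes. Of 17 markers detected, 16 had negative differences and 6 fell, with a median of -0.45, and with the replicate block 1 of them was called. Alb, albumin, differed by -0.42 (adjusted p = 0.0895), and the summed linear level of the list was 6927 to 7177 in STD and 4482 to 6077 in ATH. Without scaling, the median of the list was -0.01. The part of hepatocyte share in the differences of coagulation genes was not tested. The genes of 9 hepatocyte transcription factors gave 0 calls and 8 negative differences, with a median of -0.47 (-0.02 without scaling).

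The direction of the small differences depended on how arrays were put on 1 scale. The median over all detected probes was -0.15 with the 75th percentile, -0.08 with the array median, -0.05 with quantile normalization, 0.16 with spike-in probes and 0.30 without scaling. The 32 genes divided into 10 higher and 22 lower, 11 and 21, 20 and 12, 17 and 15, and 31 and 1 under the same 5 settings. Their median minus that of all probes was -0.08 in 4 of the 5 and 0.12 with quantile normalization. Those 4 settings differ only by 1 constant per array, so their equal value follows by construction and is no sign of stability. Among all probes called, the share higher on ATH was 38.3%, 55%, 54.3%, 86.4% and 94.9% in that order. Procr, Plaur and F13a1 were higher on ATH and A2m was lower on ATH under all 5, and Procr and Plaur were called under all 5. With normexp background correction in place of the processed signal, the differences were 2.86 for Procr, 1.47 for Plaur and 1.08 for F13a1. That setting called 6 genes, Procr and Plaur higher on ATH and A2m, F2, Fgg and Serpinc1 lower. The limma adjusted p-values there were 0.0350 for F2, 0.0432 for Fgg and 0.0402 for Serpinc1. Of the 5 scalings, A2m was called under the main setting only.

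**Figure D5:**
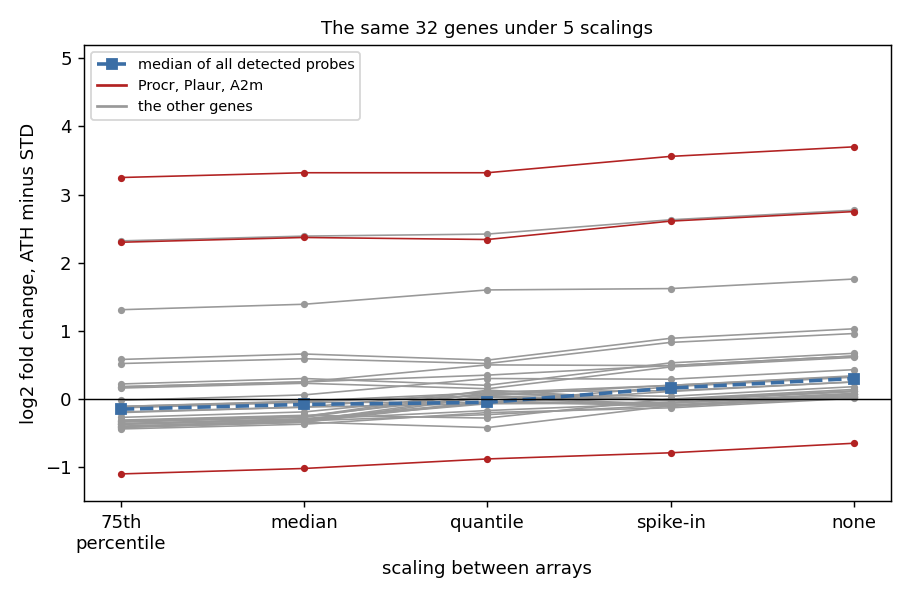
Log2 fold change (ATH minus STD, vertical axis) of the 32 genes under 5 ways of scaling the arrays (horizontal axis), one line per gene, with Procr, Plaur and A2m in red and the median of all detected probes as a dashed blue line. The dashed line moves from -0.15 to 0.30 and most grey lines cross 0 with it, whereas the 4 genes at the top (with Plau at background in STD) stay above 1 and A2m stays below 0.

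Beyond these 32 genes, 46 of 51 other genes of the pathway could be tested, and 5 were called, 4 higher and 1 lower. These genes are not members, and the background for all genes was 8.78%. Of 16 other plasma inhibitors and modulators, Fgl2, a membrane prothrombinase of macrophages and endothelium, rose by 2.49 (adjusted p = 0.0320, and 0.0587 with the replicate block), from -2.68 to -2.15 in STD to -1.63 to 1.21 in ATH. Tfpi2, a Kunitz-type inhibitor of plasmin and other proteases, fell by 1.04 (adjusted p = 0.0138), from 1.54 to 1.89 in STD to 0.46 to 1.05 in ATH.

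Of 4 plasminogen receptors, Anxa2, which binds plasminogen and tissue-type activator on cell surfaces, rose by 1.77 (adjusted p = 0.0101), from -0.29 to 0.04 in STD to 1.14 to 2.14 in ATH. Of 16 platelet receptor and granule genes, Tbxas1, thromboxane synthase, rose by 1.53 (adjusted p = 0.0409, and 0.0585 with the block). Clec1b, the podoplanin receptor that Kupffer cells also carry, rose by 1.44 (adjusted p = 0.0178). Pf4, platelet factor 4, differed by 1.12 (adjusted p = 0.0574, and 0.0460 with the block). The vitamin K cycle, which carboxylates factors II, VII, IX and X and proteins C and S, gave 0 calls of 5 genes, with differences from -0.39 to -0.13 (0.06 to 0.31 without scaling), and the pair of genes that export factors V and VIII gave 0 calls.

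Fibrinogen and several inhibitors belong to the acute phase response that interleukin-6 drives in hepatocytes. Il6 was the 1 gene called of 5 in that signalling list (adjusted p = 0.0314), at -5.06 to -3.78 in STD and -3.56 to -3.08 in ATH. It was detected on 2 STD arrays and 4 ATH arrays and so entered the test through ATH only, where it was high. The call is therefore counted but not taken as support for a rise, and it gives no exact size. Of 15 acute phase genes 0 were called and the median was 0.15, with STD replicate 4 high as described above. Of 18 complement genes of liver, Mbl1, a mannose-binding lectin, fell by 0.57 (adjusted p = 0.0404, and 0.0719 with the block), and the median was -0.24, beside -0.23 for the coagulation genes (0.20 and 0.21 without scaling).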

How the data were processed

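Liver RNA of 8 mice (4 STD, 4 ATH) was labelled with Cy3 and hybridised to Agilent Whole Mouse Genome arrays. The authors ran Agilent Feature Extraction 9.5, and the deposited spot intensity values were background-subtracted. A table of 31642 log2 values was also deposited, equal to the log2 processed signal plus constants per array and probe for 100% of 27136 probes compared (within 0.001), used here as an alternative.

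Outlier spots were left out, spots of a probe averaged, and the log2 signal centred on each array's 75th percentile. Probes well above background on at least 3 of 4 arrays of either diet were tested with limma 3.58.1 in R 4.3.3 (lmFit, eBayes, two-sided, Benjamini-Hochberg over 31042 probes, 5%), after a check on simulated data. Python 3.11.15, numpy 2.4.6, pandas 2.3.3 and matplotlib 3.10.9 made summaries and plots. Gene names used accessions, symbols and synonyms of a later assembly (22944, 6664 and 3108 probes; 8458 kept the file's name). Same-numbered arrays shared a slide position and deviated together (correlations 0.100, 0.230, 0.182 and 0.177), so replicate was also fitted as a block. Precision was limited by 4 arrays per diet. The genes, lists and markers were chosen with earlier results of these data known, and all 32 genes are accounted for, with values on all arrays for genes called or without overlap.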

Additional observations from a re-analysis of the deposited data

Results flagged for a closer look

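F3 (tissue factor) on STD replicate 3 was -1.31, against -1.06 to -1.05 on the other STD arrays, a gap of 0.942 of the group's range that passed Dixon's 95% criterion. It was the 1 case in 64 groups checked (32 genes on 2 diets), and chance gives about 1 in 20. The second F3 probe was also lowest on that array among STD arrays, at -1.98 against -1.62 to -1.5. These 2 probes overlap by part of their sequence.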

How the results depend on the processing

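The calls rest on few mice, with 4 arrays per diet on separate slides. STD replicate 4 stood apart in acute phase genes, and ATH replicates 3 and 4 often lay on the same side of replicates 1 and 2. Over all probes, 2481 were called, against 7363 without scaling, 6378 with normexp background correction, 1086 without the detection filter, 22 by the methods' test, 164 at 1%, 1322 with the replicate block and 394 to 3978 with 1 array left out. Of the 32 genes, 3 were called, against 8 without scaling, 6 with normexp, 1 without the filter, 0 by the methods' test and 0 at 1%, and 0 to 5 with 1 array left out. With 1 array left out, 0 were called without any STD replicate or ATH replicate 4, 2 (Plaur and A2m) without ATH replicate 1, 1 (A2m) without ATH replicate 3, and 5 (F13a1, Serpinc1, Procr, Plau and Plaur) without ATH replicate 2. The replicate block also called 3 (Plau, Plaur and A2m), since Procr was lost and Plau, whose STD signals were at background, passed, and changed no other call among the 32. Groups without overlap numbered 9, against 14 without scaling, 5 with spike-in scaling and 9 to 14 with 1 array left out. The share of all genes without overlap was not counted under those other settings. Of the other pathway genes 5 were called, against 17 without scaling, 9 with spike-in scaling, 12 with normexp, 3 without the filter, 0 by the methods' test, 0 at 1% and 2 to 8 with 1 array left out. The median difference of the 32 genes was -0.23, against 0.0645 with quantile normalization, 0.215 without scaling, 0.0786 with spike-in scaling and -0.279 to -0.179 with 1 array left out. Without scaling and with spike-in or median scaling, all genes shift by 1 constant per array by construction, and the cause of the other changes was not tested.

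Without scaling, the sign turned for 21 genes: Kng1 (0.033), Klkb1 (0.05), F12 (0.255), F11 (0.007), F3 (0.035), F7 (0.076), Vwf (0.136), F9 (0.251), F10 (0.123), F5 (0.334), F2 (0.049), Fga (0.429), Fgb (0.114), Fgg (0.107), F13b (0.338), Serpinc1 (0.03), Serpind1 (0.075), Serpina5 (0.321), Proc (0.178), Plg (0.085) and Serpinf2 (0.074). With quantile normalization it turned for F12 (0.107), F10 (0.04), F5 (0.055), F2 (0.05), Fga (0.302), Fgb (0.13), Fgg (0.095), F13b (0.093), Serpinc1 (0.028) and Proc (0.074). With spike-in scaling it turned for F12 (0.119), F9 (0.115), F5 (0.198), Fga (0.293), F13b (0.202), Serpina5 (0.185) and Proc (0.043). Fga was 0.056 with median scaling and 0.054 with normexp, and Tfpi was -0.016 as the mean of its detected probes. With 1 array left out, Fga ranged from -0.09 to 0.064, F13b from -0.235 to 0.002 and Serpina5 from -0.416 to 0.154. The authors' deposited values and limma with the trend and robust options kept the direction and call of all 32 genes.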

Other observations

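The remaining marker lists gave these values. Of 12 stellate cell markers 2 were called (Ngfr, which rose by 0.60, and Col3a1, which rose by 1.74, of which Ngfr was lost with the replicate block, adjusted p = 0.0752), with a median difference of 0.33. Of 9 cholangiocyte markers 1 was called (Sox9, which rose by 1.04). Of 11 T and B cell markers 0 were called, with a median of 0.54, and of 8 neutrophil markers 0 were called, with a median of 0.55. With the replicate block, 2 of the neutrophil markers were called, S100a8 (adjusted p = 0.0271) and S100a9 (adjusted p = 0.0301). Of 3 erythroid markers Alas2 fell by 0.90, a call lost with the block (adjusted p = 0.0626). The 2 vitamin K dependent proteins outside the cascade that were tested gave 0 calls, with Mgp at 0.78 (adjusted p = 0.0678), and the thrombin receptor F2r differed by 0.31 (adjusted p = 0.307).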
